A study of Mus musculus with 2 samples.

Results

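Digestive enzymes of the exocrine pancreas belong to the antigens that the thymus displays to developing T cells, and 9 of their genes were followed here in medullary thymic epithelial cells with and without knockdown of Clp1. The genes were Prss2 (trypsinogen), Ctrb1 (chymotrypsinogen), Cela1 and Cela2a (elastases), Cpa1 and Cpb1 (carboxypeptidases), Pnlip (pancreatic lipase), Clps (its cofactor colipase) and Cel (carboxyl ester lipase). The set is defined by symbols and uses no read count, although it was drawn up with earlier results of these data known. For each gene the RefSeq transcript that collected most reads in total was taken, which gave 9 of the 23571 genes in the count table. Read counts came from 2 RNA-seq libraries of mTEChi, the medullary epithelial cells with high MHC class II, which the labels describe as thymic cells sorted by flow cytometry. The sort gate was CD45-, MHC class II high and Ly51 low to intermediate. The Clp1 knockdown library was made from GFP-positive cells and the Ctr library from GFP-negative cells of 1 lentigenic mouse of the B6 strain. Every cell of both groups came from an animal that carried 3 shRNAs against Clp1, built into a microRNA cluster behind the doxycycline-responsive TRE3G promoter with the ZsGreen reporter, and the TetOn3G transactivator behind the EF1 promoter. That mouse was fed doxycycline pellets (2 g/kg) for 2 weeks starting at 3 weeks of age. The groups therefore differ in reporter and shRNA expression within a single founder, and anything else that separates GFP-positive from GFP-negative cells in that thymus cannot be told apart from the knockdown.

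Acinar cells of the pancreas store these enzymes in zymogen granules, mostly as inactive precursors, and release them into the gut, where trypsin activates the other proteases. In the thymus, mTEChi transcribe genes of such tissues at a low level, many of them under the control of Aire, so that T cells that recognize the products are deleted or diverted. Clp1 is a subunit of the complex that cleaves pre-mRNAs at their 3' ends before the poly(A) tail is added. The comparison asked whether messages of this exocrine program differed in level, or between parts of the transcript, when Clp1 mRNA was reduced.

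The tables held 37524730 counted reads for the Clp1 knockdown library and 28464803 for Ctr. Clp1 itself had 812 reads in the knockdown library and 1573 in Ctr, and its level fell to 39.7% of Ctr. All 15 mature mTEC markers were read in both libraries, and their median log2 ratio was 0.39. Aire was among them with 8264 knockdown and 7462 Ctr reads (-0.23). By the 2-fold rule described below, 4 of the 15 were higher (Epcam, Krt5, Krt14 and Cd40), 1 was lower (Cd86) and 10 stayed within 2-fold. Markers of other cells were read in both libraries as well, with none at 0, and were mostly lower in the knockdown library. The 2-fold fall described below was met by 9 of 9 endothelial markers, 10 of 14 thymocyte markers, 5 of 7 B cell markers, 6 of 9 fibroblast and mural cell markers, 4 of 4 red cell markers with enough reads (Hba-a1 and Hba-a2, which had the same reads, counted once), and 3 of 10 dendritic cell and macrophage markers. Summed as RPM (reads per 1000000 counted), these lists held 73.5 knockdown and 1247 Ctr (endothelium), 219 and 691 (thymocytes), 23.8 and 65.4 (B cells), 321 and 615 (fibroblasts and mural cells), 62.9 and 1911 (red cells), and 544 and 462 (dendritic cells and macrophages). By the 2-fold rule 1 marker of these lists was called higher, Xcr1 of the dendritic cell and macrophage list, with 226 knockdown and 38 Ctr reads. Ratios were above 0 for 4 of 10 dendritic cell and macrophage markers, 2 of 9 fibroblast and mural cell markers and 1 of 14 thymocyte markers. Over all genes with at least 10 reads the same rule called 19.7% lower and 22% higher. The part of these other cells in the enzyme values was not tested. In bulk RNA, fewer cells that make a message and less message per cell cannot be told apart. With 1 library per group there is no replicate error and no p-value, and every difference is between these libraries. Intervals are exact 95% intervals that cover the counting error of reads only. PCR reads are not independent molecules, so the error of counting molecules may be wider than these intervals.

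The exocrine genes were read at low levels in both libraries, and they did not move as a block. Of the 9 genes, 7 reached 10 reads over both libraries. A gene was called 2-fold lower or higher when its scaled ratio passed 2-fold and its interval excluded a log2 ratio of 0. By this rule Clps and Pnlip were lower in the knockdown library, Cela1 was higher, and Cel, Ctrb1, Cela2a and Prss2 stayed within 2-fold. Over all 18993 genes with at least 10 reads the same rule called 19.7% lower and 22% higher, or 41.6% in either direction. Calls depend on depth, and among the 6540 genes with as many reads as these enzymes (41 to 583) it called 30.2% lower and 31% higher, or 61.2% in either direction. A count of 2 lower and 1 higher among 7 is thus no larger than in genes of like depth. Log2 ratios, knockdown over Ctr, were below 0 for 5 of the 7 genes and above 0 for Cela1 and Cela2a. Their median was -0.56, also with Cela1 at its bound, against 0.03 over all 18993 genes and -0.02 over the genes of like depth.

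Added up, the 9 genes had 979 reads in the knockdown library and 1267 in Ctr, or 26.1 and 44.5 RPM. The log2 ratio of the sum was -0.75 (interval -0.87 to -0.63). Colipase carried much of that gap: without Clps the sums were 910 knockdown and 962 Ctr reads, with a log2 ratio of -0.46 (-0.59 to -0.33). Clps made up 7.05% of the enzyme reads in the knockdown library (interval 5.52% to 8.84%) and 24.1% in Ctr (21.7% to 26.5%). Prss2 took 30.4% (27.6% to 33.4%) in the knockdown library and 18.6% (16.5% to 20.9%) in Ctr.

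**Figure D1:**
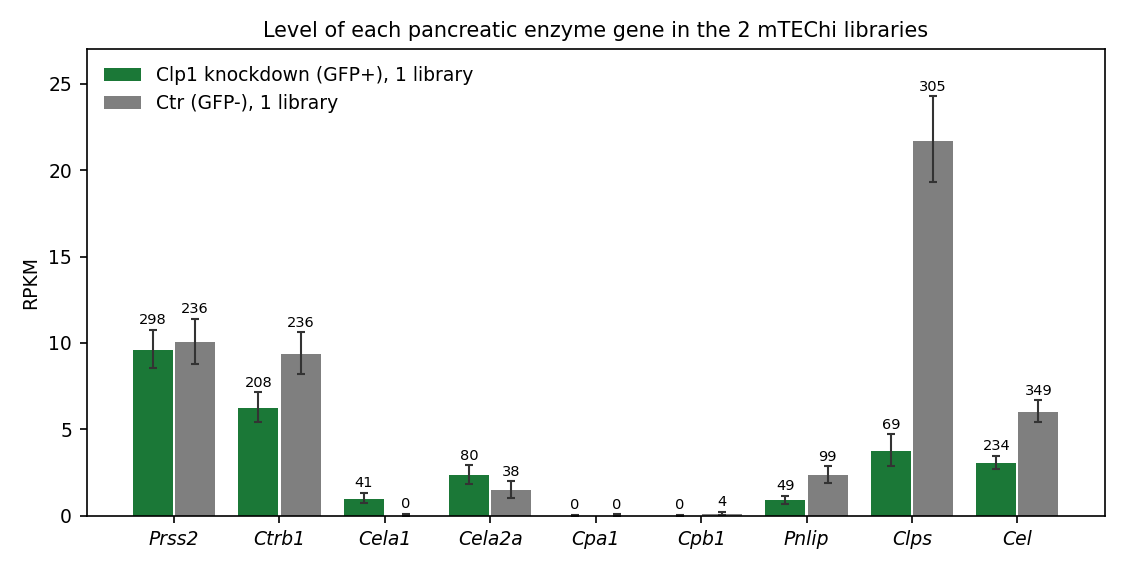
Level of the 9 enzyme genes in RPKM (RPM per kb of transcript), Clp1 knockdown in green and Ctr in grey, 1 library each. Bars start at 0, lines are exact 95% Poisson intervals of the reads, and the number above each bar is its read count. Clps stands at 3.72 RPKM in the knockdown library and 21.7 in Ctr, while the Prss2 bars of 9.61 and 10.04 nearly match.

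Corrected for length, the order of the genes differed between the libraries. In the knockdown library Prss2 was the highest, followed by Ctrb1, Clps, Cel, Cela2a, Cela1 and Pnlip. In Ctr, Clps was the highest, followed by Prss2, Ctrb1, Cel, Pnlip, Cela2a and Cpb1. Neighbours whose counting intervals overlapped cannot be ordered: Clps with Cel, Cel with Cela2a, and Cela1 with Pnlip in the knockdown library, and Prss2 with Ctrb1 and Pnlip with Cela2a in Ctr. Prss2 and Ctrb1 had the same 236 reads in Ctr, so their order there rests on transcript length alone. RPKM does not correct for reads lost across exon junctions. A read of 50 bases could start at 69.9% of the exon length of Prss2 and 61.3% of that of Ctrb1. The plot of RPKM by gene shows both orders.

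Trypsinogen had the ratio nearest to 0 among the 7 genes. Prss2 (NM_009430; mm9 chr6:41471786-41475078, plus strand, 5 exons) had 298 reads in the knockdown library and 236 in Ctr, which is 9.61 and 10.04 RPKM. The log2 ratio was -0.04 (-0.29 to 0.21). Mouse trypsinogens form a tandem array inside the T cell receptor beta locus, and Prss2 lies 8.12 kb before the diversity segment Trbd1. The 5 other trypsinogens with a match in the table, Prss1, Prss3, Try4, Try5 and Try10, lie between the variable segment Trbv30 and that segment too. Their coding sequences align to that of Prss2 with 88.7% to 91.6% identical bases. The stretch below starts at the glycine codon just before the aspartate and the catalytic serine, which are part of the active site of every trypsin. It is coding bases 592 to 621 of each, read 5′ to 3′ from mm9, and the capitals mark the 3 positions at which the copies differ.
Prss2 (chr6:41474872-41474901, plus strand): ggtgactcTggtggCcctgtggtCtgcaat
Prss1 (chr6:41413583-41413612, plus strand): ggtgactcTggtggCcctgtggtCtgcaat
Prss3 (chr6:41323933-41323962, minus strand): ggtgactcCggtggCcctgtggtCtgcaat
Try4 (chr6:41255338-41255367, plus strand): ggtgactcTggtggCcctgtggtCtgcaat
Try5 (chr6:41261396-41261425, minus strand): ggtgactcTggtggTcctgtggtTtgcaat
Try10 (chr6:41307732-41307761, plus strand): ggtgactcTggtggCcctgtggtCtgcaat

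Near copies of this kind can share reads, so the exact 50-base windows of their exons were looked up in the whole mm9 genome. Only 4.56% of the windows of Prss2 (26 of 570) occurred a further time, whereas 42.9% to 68.2% of those of the other 5 trypsinogens did. The values of the other copies are therefore uncertain gene by gene, and Prss2 is the copy that exact reads can best be assigned to. No window of the other 8 enzyme genes occurred elsewhere, which for Cpb1 covers only the 2 exons of its transcript in GENCODE vM1.

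Around Prss2, most of the other trypsinogens with a match were lower in the knockdown library. A further 2 listed trypsinogens, Prss3b and Prss3l, had no match and were not measured. Prss1 had 261 knockdown and 797 Ctr reads (log2 ratio -1.99, interval -2.20 to -1.79), which made it the most read trypsinogen in Ctr. Try10 had 19 knockdown and 89 Ctr reads, Prss3 had 20 and 78, and Try4 had 29 and 63, with log2 ratios of -2.61, -2.34 and -1.50. Try5, with 56 knockdown and 52 Ctr reads, stayed within 2-fold at -0.27. By the 2-fold rule 4 of these 5 fell and none rose, with a median log2 ratio of -1.99. Beside this, 19.7% of all genes and 30.2% of the genes with 41 to 583 reads were called lower. Prss1, with 1058 reads in all, lies outside that range. Because of the shared windows the 5 trypsinogens are not 5 separate calls. The interval of Prss2 did not overlap those of the 4 that fell, and overlapped that of Try5 (-0.84 to 0.30).

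**Figure D2:**
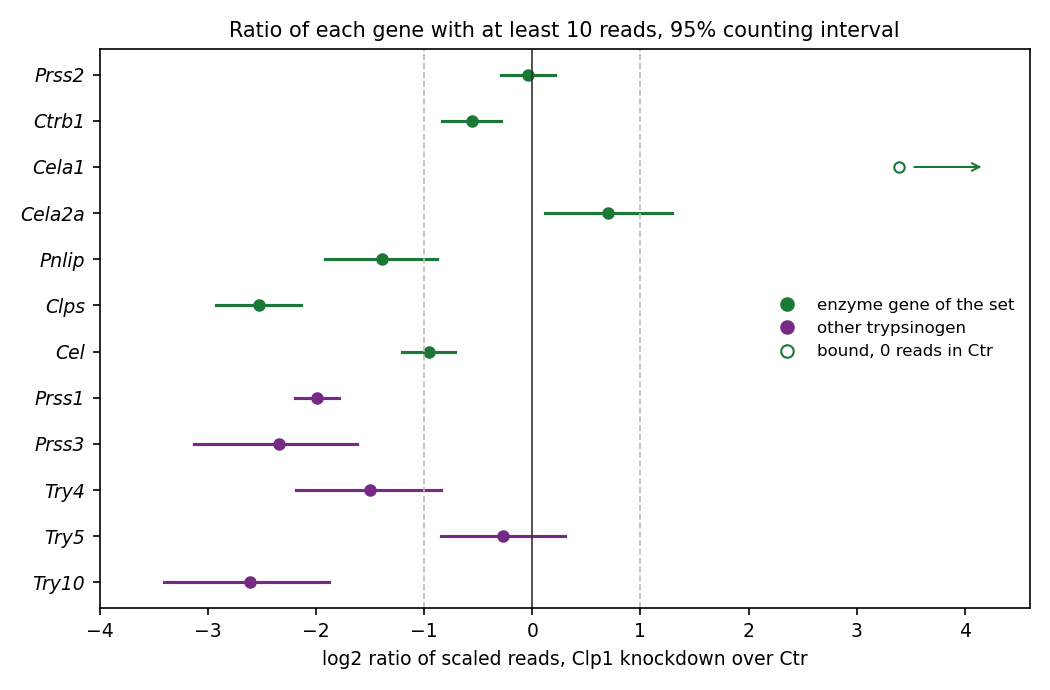
Log2 ratio of scaled reads, Clp1 knockdown over Ctr, for the 7 enzyme genes with at least 10 reads (green) and the 5 other trypsinogens (purple), with exact 95% counting intervals. Dashed lines mark 2-fold and the open circle with an arrow is a bound, with 3 reads in place of 0 in Ctr. Clps lies lowest among the enzymes at -2.52, Cela1 at its bound of 3.39, and Prss2 at -0.04.

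Chymotrypsinogen was mildly lower. Ctrb1 (NM_025583; chr8:114210410-114214910, minus strand, 7 exons), the precursor of the protease that cuts after large aromatic residues, had 208 knockdown and 236 Ctr reads, or 6.25 and 9.35 RPKM. The log2 ratio was -0.56 (-0.84 to -0.29), a 1.47-fold lower level. The interval excluded 0, and the ratio stayed within 2-fold.

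Of the 2 elastases of the set, Cela1 was called higher and Cela2a was not called. Cela1 (NM_033612; chr15:100504856-100518351, minus strand, 8 exons) had 41 reads in the knockdown library and 0 in Ctr, or 0.988 RPKM against the 0.0953 RPKM that 3 reads would give. Its level was at least 10.5-fold higher in the knockdown library, counted against that floor of 3 reads and with the 41 reads taken as they stand. On the log2 scale this bound is 3.39, and the exact interval, which also covers the counting error of the 41 reads, begins at 3.03. Cela1 was thus the only one of the 9 genes to be read in the knockdown library alone. Such gaps were common at this depth: of 2245 genes with 0.5 to 2 times the reads of Cela1, 19.4% had no read in Ctr and 8.55% had none in the knockdown library. Cela2a (NM_007919; chr4:141370877-141382075, minus strand, 8 exons), a second elastase of the same granules, had 80 knockdown and 38 Ctr reads, or 2.34 and 1.46 RPKM. Its log2 ratio of 0.70 (0.12 to 1.29) stayed within 2-fold. The further elastases Cela3a, with 28 knockdown and 24 Ctr reads (-0.16), and Cela3b, with 132 and 100 (0.02), stayed within 2-fold as well.

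Cela1 and Ctrb1 share a promoter feature of acinar genes. PTF1, the transcription factor complex that drives acinar genes, recognizes an E-box, CANNTG (N is any base), followed by a TC-box, TTTCCC. The pair was searched on both strands with 4 bases between them. In RefSeq promoters of GRCm38.p6, from 250 bases before to 50 after the start, 2 of the 8 enzyme genes with a sequence held the pair, against 0.104% of all 27025 genes (28 genes). Because PTF1 is known from acinar genes, a larger share here than over all genes could be foreseen and is no separate result. The stretches are shown as the sites at which the acinar factor would be looked for in these cells. Both lie on the coding strand, were located in mm9 by exact match, and have the pair in capitals, the bases between included. It starts 109 bases before the start of Cela1 and 205 before that of Ctrb1.
Cela1 (chr15:100518438-100518467, minus strand): ttcatgtCACCTGCGCTTTTCCCtgccttc
Ctrb1 (chr8:114215093-114215122, minus strand): atcagagCAGCTGTCCTTTTCCCatgggtt

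A match to these letters is a description and not a measured site, and spacings other than the one searched were not examined. Of the complex itself only the RNA of Ptf1a and Rbpjl was looked up, and it was absent or at the edge of detection. Ptf1a, a DNA-binding subunit, had 0 reads in both libraries, and Rbpjl, the acinar subunit that pairs with it, had 0 in the knockdown library and 7 in Ctr. Of the 2 genes with the pair, Cela1 was called higher and Ctrb1 stayed within 2-fold at -0.56.

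The carboxypeptidases, which trim amino acids from the ends of peptides, were all but silent. Cpa1 (NM_025350; chr6:30589218-30595363, plus strand, 10 exons), which acts on aliphatic and aromatic ends, had 0 reads in both libraries, which allows up to 0.0507 RPKM in the knockdown library and 0.0668 in Ctr. Cpb1 (NM_029706; chr3:20148163-20174655, minus strand), which acts on basic ends, had 0 knockdown and 4 Ctr reads. Neither reached the minimum of 10 reads, so no fold is given, and a difference in either was not detectable at this depth. Of all genes, 10.4% had no read in either library.

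Both genes of the set that were called lower act in fat digestion. Clps (NM_025469; chr17:28695155-28697711, minus strand, 3 exons), the small cofactor that anchors pancreatic lipase to fat droplets coated with bile salts, had 69 knockdown and 305 Ctr reads, or 3.72 and 21.7 RPKM. Its log2 ratio was -2.52 (-2.92 to -2.14), a 5.75-fold lower level and the lowest ratio among the 7 genes. Pnlip (NM_026925; chr19:58744855-58756276, plus strand, 13 exons), the lipase that colipase serves, had 49 knockdown and 99 Ctr reads, or 0.878 and 2.34 RPKM. Its log2 ratio was -1.39 (-1.92 to -0.89), a 2.63-fold lower level. The lipase and its cofactor were thus both lower, and their intervals did not overlap, so that the fall of Clps was the larger by the counting error of reads.

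Cel (NM_009885; chr2:28411315-28418923, minus strand, 11 exons) encodes a bile salt-dependent lipase of broad specificity that also splits cholesterol esters. It had 234 knockdown and 349 Ctr reads, or 3.06 and 6.02 RPKM. The log2 ratio of -0.96 (-1.20 to -0.71) is a 1.94-fold lower level, just inside the 2-fold limit and with an interval that spans it. Fat-digesting genes outside the set went both ways: Pnliprp2, a relative of Pnlip, was called higher with 17 knockdown and 0 Ctr reads, and the phospholipase Pla2g1b was called lower with 131 and 226.

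Clp1 acts at 3' ends, so the reads were also compared between separate parts of each transcript. The authors' second table splits a transcript into the 5'UTR, the earlier exons and the last exon, and cuts the last exon where its first annotated poly(A) site lies. Clps, with the largest fall, was lower in both parts. Its earlier exons had 31 knockdown and 111 Ctr reads (log2 ratio -2.22, interval -2.84 to -1.63) and its last exon 30 and 148 (-2.68, -3.30 to -2.11). Pnlip had 39 knockdown and 78 Ctr reads in earlier exons (-1.38) and 10 and 21 in the last exon (-1.45). For Cel these were 152 and 226 reads (-0.95) and 81 and 119 (-0.93). In these 3 genes the ratio was therefore below 0 in both parts of the transcript.

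Among the proteases, Cela1 had 28 knockdown and 0 Ctr reads in earlier exons and 13 and 0 in the last exon, so its presence in the knockdown library did not rest on a single stretch. Ctrb1 had 128 knockdown and 159 Ctr reads in earlier exons (-0.69) and 78 and 74 in the last exon (-0.30). Prss2 had 209 and 146 (0.14) in earlier exons and 89 and 90 (-0.39) in the last. The widest gap was in Cela2a, with 56 knockdown and 21 Ctr reads in earlier exons (1.04, interval 0.29 to 1.83) and 21 and 17 in the last exon (-0.07, -1.07 to 0.94). The difference between the parts was taken directly, as the log2 ratio in earlier exons minus that in the last exon, with an exact interval. It was 0.53 for Prss2 (-0.01 to 1.08), whose interval only just included 0, and 1.10 for Cela2a (-0.18 to 2.39). It was 0.46 for Clps (-0.40 to 1.33), 0.07 for Pnlip (-1.24 to 1.46), -0.02 for Cel (-0.54 to 0.51) and -0.39 for Ctrb1 (-0.99 to 0.21). None of the 6 intervals excluded 0, and an interval that includes 0 does not show that the parts moved alike.

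**Figure D3:**
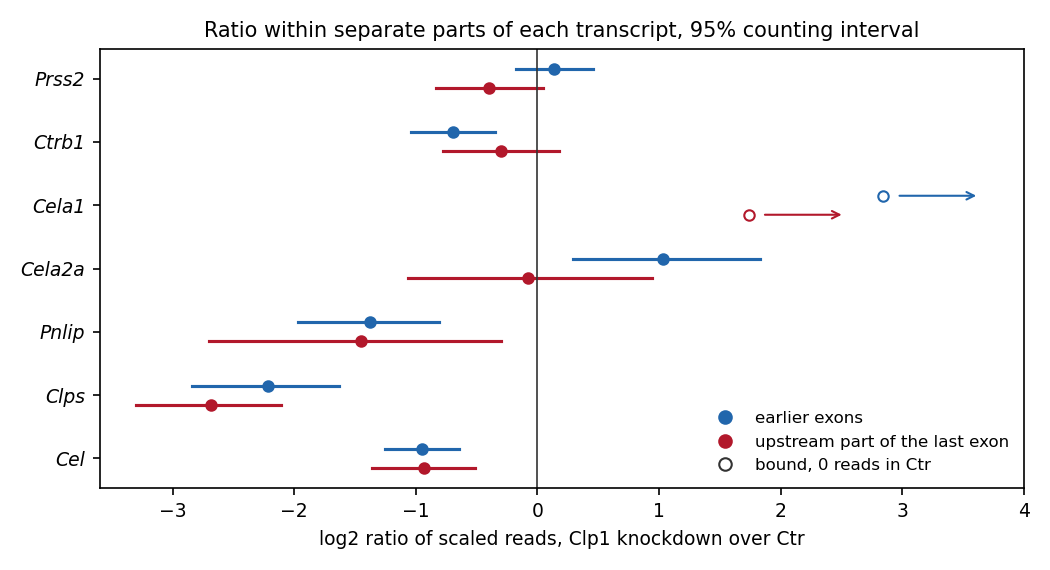
Log2 ratio of scaled reads, Clp1 knockdown over Ctr, in the earlier exons (blue) and in the last exon upstream of any proximal poly(A) site (red) of the 7 enzyme genes with at least 10 reads, with exact 95% counting intervals. Open circles with arrows are bounds for Cela1, with 3 reads in place of 0 in Ctr. Clps lies at -2.22 and -2.68, and the parts are farthest apart in Cela2a, at 1.04 and -0.07.

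The d3'UTR ratio, the read density beyond the proximal poly(A) site relative to the last exon before it, could not be obtained for these enzymes. Of the 9 genes only Cel had a distal 3'UTR in the table, of 39 bp, with 0 reads in both libraries. Reads were 50 bases long, and of 409 distal parts shorter than that 39 held any read, against 58 of 129 parts of 50 to 59 bp. The 8 other enzyme genes had no distal 3'UTR in the table.

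The lists of further acinar genes and their regulators gave calls in both directions too. Beyond the 9 enzymes, the acinar lists held 32 further genes with at least 10 reads (the 5 trypsinogens, 12 other hydrolases and 15 granule or regulatory proteins). They gave 12 lower, 7 higher and 13 within 2-fold, with a median log2 ratio of -0.33. The 7 higher include Tmprss15, which acts in the gut. That is 19 of 32 called in either direction (59.4%), beside 61.2% of the genes with 41 to 583 reads and 41.6% of all genes. The 32 genes ran from 15 reads (Serpini2) to 44549 (Reg3g), so neither share matches them in depth. Among the hydrolases 4 fell and 3 rose. Klk1, tissue kallikrein, had 3340 knockdown and 557 Ctr reads (log2 ratio 2.21, interval 2.08 to 2.34), the strongest rise among hydrolases read in both libraries. Pla2g1b, pancreatic phospholipase A2, had 131 and 226 reads (-1.17). Amy2a5, a pancreatic amylase with near-identical copies, had 24 and 79 (-2.10). The chymotrypsin-like Ctrl had 18 and 0 reads and the lipase-related Pnliprp2 17 and 0. Counted against 3 Ctr reads these are 4.62-fold and 4.36-fold higher, and their exact intervals begin at log2 ratios of 1.76 and 1.67. Pnliprp1, another relative of Pnlip, had 119 and 75 reads (0.29) and stayed within 2-fold.

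Levels of the granule and regulatory proteins ran from 0 to far above those of the enzymes. Reg3g, a secreted antibacterial lectin, stood at 755 RPKM in the knockdown library and 1026 in Ctr, and Gp2, the main membrane glycoprotein of zymogen granules, at 117 and 151 RPKM. Spink1, the trypsin inhibitor of the granules, had 1493 knockdown and 2005 Ctr reads, or 94.3 and 167 RPKM, and stayed within 2-fold at -0.80. Gp2 thus stood at over 10 times the RPKM of Prss2 in both libraries. Zg16, a granule lectin, fell like Clps, with 62 knockdown and 285 Ctr reads (-2.58), while Sycn, syncollin, had 34 and 26 (0.01). Cuzd1, a zymogen granule protein, had 382 knockdown reads and 0 in Ctr. Counted against 3 Ctr reads this is 97.9-fold higher, and its exact interval begins at a log2 ratio of 6.31. Tmprss15, the enteropeptidase that activates trypsinogen in the gut, had 213 and 4 reads (5.36, interval 3.98 to 7.25). Of the 15 genes of this list 4 fell and 4 rose, again beside 19.7% and 22% of all genes.

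Transcription factors of the acinar lineage gave calls in both directions. Of 10 factors, 8 had at least 10 reads, and 3 fell and 3 rose, beside 19.7% and 22% of all genes. Bhlha15 (Mist1), which shapes the secretory apparatus, had 0 knockdown and 30 Ctr reads, and Gata4 had 19 and 660 (-5.50). Nr5a2, a nuclear receptor that supports acinar genes, had 77 and 0 reads, and Pdx1, which specifies the pancreas, had 84 and 0.

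Islet genes are the endocrine counterpart of these enzymes. Of 11 with at least 10 reads 7 fell and 1 rose, beside 19.7% and 22% of all genes, with a median log2 ratio of -1.38. Ins2, an insulin gene and a well-studied thymic antigen, had 82 knockdown and 364 Ctr reads (-2.53, interval -2.89 to -2.18), close to the ratio of Clps. Iapp, amylin, had 910 and 1745 (-1.32), and Gcg, glucagon, had 332 and 320 (-0.33) and stayed within 2-fold. The difference between islet and exocrine genes was not tested.

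**Figure D4:**
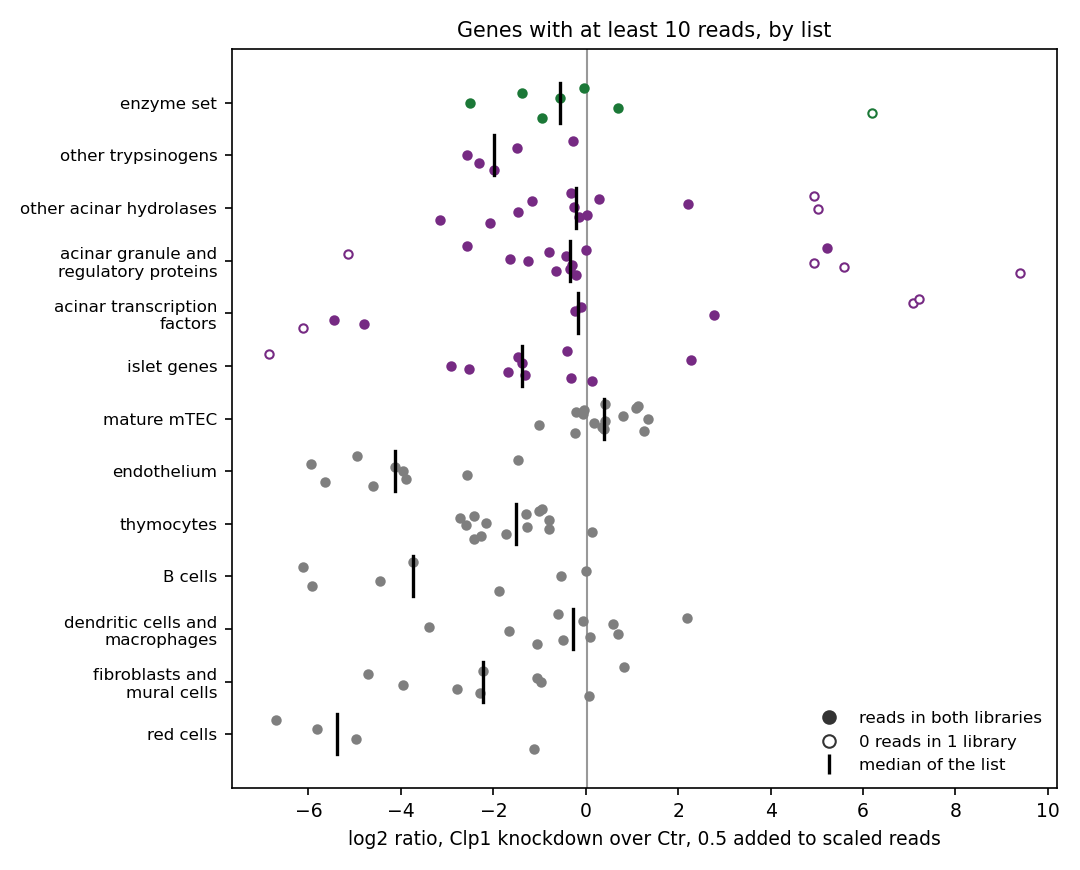
Log2 ratio, Clp1 knockdown over Ctr, of each gene with at least 10 reads, with 0.5 added to scaled reads, by list: the enzyme set (green), other pancreatic lists (purple) and markers of mTEC and other cells (grey). Open circles had 0 reads in 1 library, black bars are list medians, and the grey line is the median of all 18993 genes, 0.03. The enzyme median stands at -0.56, that of the other trypsinogens at -1.99 and that of the islet genes at -1.38.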

How the data were processed

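Poly(A)-selected libraries were prepared from Trizol-extracted total RNA with the Smarter Ultra Low Input and Nextera kits and sequenced single-end. The submitters' processing notes name Bowtie 1.0.0, bedtools, DESeq and the mm9 genome. The authors deposited whole-number counts of reads lying wholly within exons, unnormalized, for 30794 RefSeq transcript entries, and the same counts for parts of 27567 transcripts with each part's length in bp. Reads across exon junctions are lost, which lowers genes with short exons. Strandedness of the counting was not stated, so overlapping antisense genes cannot be told apart. A further table of the authors' own normalized signal, folds and p-values was not used.

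Symbols came from RefSeq GRCm38.p6 (30212 entries matched) and loci from NCBIM37 (mm9) with GENCODE vM1. Isoforms share reads, so 1 transcript stood for each gene, and RPKM used the summed part lengths. Size factors (median of ratios) were 1.14 for the knockdown library and 0.877 for Ctr. Each log2 ratio was given the Clopper-Pearson 95% interval of its read share, and a gene with 0 reads in 1 library a bound at 3 reads there. List medians had 0.5 added to scaled counts. No test was run on 1 library per group. Genes named are the 9 enzymes and genes of lists of acinar, islet and cell type markers, all chosen with earlier results of these data known. Single values of a few list genes are not reported here. Alternatives were other scalings (edgeR 4.0.16 TMM and upper-quartile, total reads), summed transcripts, summed parts, minimums of 1 and 50 reads and other pseudocounts. The ratio code was tested on simulated data. Tools were Python 3.11.15, numpy 2.4.6, pandas 2.3.3, scipy 1.17.1 and R 4.3.3.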

Additional observations from a re-analysis of the deposited data

How the results depend on the processing

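Each group is 1 library, and 7 of the 9 enzymes had only 41 to 583 reads and 2 had fewer than 10. With a minimum of 50 reads the number of enzymes called at least 2-fold higher became 0, because Cela1 had 41 reads in all. No edgeR test could be run on 1 library per group, so no p-value stands beside that count. The 41 alternative values of the 7 genes (other scalings, summed transcripts, summed parts and 0.5 added to scaled counts) kept their direction and their side of 2-fold. The number called lower was 2 under all 7 alternatives run. The median log2 ratio ran from -0.76 (minimum of 1 or of 50 reads) to -0.54 (upper-quartile scaling). The other scalings shifted all genes by at most 0.02 on the log2 scale. A d3'UTR ratio of Cel with 0.5 reads added to each part was not run, as its distal part had no read in either library. No paired analysis was possible because each group is 1 library.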
